A study of Mus musculus with 2 samples.

Results

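The neuromuscular synapse was examined through 10 genes of its muscle side, measured in single cells of a muscle-forming culture. No nerve is named in the labels of either culture. The members were the 5 subunit genes of the muscle acetylcholine receptor (Chrna1, Chrnb1, Chrnd, Chrng and Chrne), the receptor-clustering genes Musk, Dok7, Lrp4 and Rapsn, and the acetylcholinesterase gene Ache. They were chosen by symbol, and all 10 were found among the 26100 genes shared by the deposited matrices. Single-cell transcriptomes of 2 mouse cultures were recorded with a droplet assay that reads the 3′ end of each transcript and tags every captured molecule with a unique molecular identifier (UMI). MEF are mouse embryonic fibroblasts in fibroblast medium. iMPC are induced myogenic progenitor cells, made from such fibroblasts with MyoD and the treatment abbreviated F/R/C in the labels, and kept in medium with F/R/C. The genotype of both is Tg:Pax7-nGFP/C57BL6;DBA2, a Pax7 reporter on a mixed background. The series describes the iMPC culture as 1 stable clone, and each culture gave 1 library.

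In muscle, the receptor is a pentamer that opens a cation channel when acetylcholine binds. Fetal and uninnervated muscle builds it with the gamma subunit, and innervated adult muscle replaces gamma with epsilon. Nerve-derived agrin binds Lrp4, which activates the kinase MuSK with its adaptor Dok7, and rapsyn then gathers receptors into clusters. In muscle that has lost its nerve most of these genes, Chrne aside, are read along the whole fibre. Electrical activity is known to silence most of them outside the synapse.

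Cells were taken at or under 20% mitochondrial UMIs, which left 6043 MEF cells with a median of 18929.0 UMIs. iMPC barcodes also needed a total of about 8000 UMIs or more, which gave 9349 cells. Of these, 2180 held Pax7 and no Myog and are called progenitor cells here (Pax7 is the satellite cell factor). Another 1724 held at least 5 UMIs of Myog, the factor of differentiating myoblasts, with at most 1 of Ckm, and are called committed cells. The 1037 cells with at least 5 UMIs of Ckm, the muscle creatine kinase, are called myocytes. No cell fell into more than 1 of these groups, and 47.2% of the iMPC cells fell into none. Median UMIs were 18729.5, 23857.5 and 42148.0 per cell in progenitor cells, committed cells and myocytes, so shares of cells with a UMI were taken after thinning each cell to 5000 UMIs. A further group of 226 iMPC cells with at least 5 UMIs of the fibroblast gene Dcn, no Pax7 or Myog and at most 1 Ckm UMI (Dcn-high cells, median 16838.0 UMIs) served as a comparison from the same library. Summed levels of 6 myocyte markers were 498 UMIs per 1000000 (CPM) in progenitor cells, 7455 in committed cells and 25232 in myocytes. They were 416 in Dcn-high cells and 93.4 in MEF cells, so Dcn-high cells were not free of muscle transcripts. Of these sums, the marker Acta1 alone gave 267 CPM in Dcn-high cells and 93.1 in MEF cells. The summed levels of 6 fibroblast markers ran the other way over the 3 myogenic groups, at 549.8, 149 and 64.3 CPM. Kept cells of the 2 libraries shared 16 barcode sequences. With 1 library per group there is no replicate error and no test was made. Each interval is an exact 95% interval for counting error alone.

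Most of the 10 genes were nearly silent in fibroblasts, Chrnb1 and Chrna1 least so, and the members were found in the iMPC culture in graded amounts. In MEF cells Chrnd, Chrne and Musk had 0 UMIs, where a count of 3 would give 0.0254 CPM. Chrng had 2 UMIs, Ache 3, Dok7 10 and Rapsn 14. Lrp4 stood at 0.559 CPM in MEF cells, Chrna1 at 1.92 CPM and Chrnb1 at 2.92 CPM, the highest of the 10. In myocytes the levels ran from 529.6 CPM for Chrna1 to 10.3 CPM for Lrp4, with Chrne alone lower, at 0.103 CPM. A 3′-end UMI count has 1 tag per molecule, so no length was divided out, although capture can still differ between genes.

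**Figure D1:**
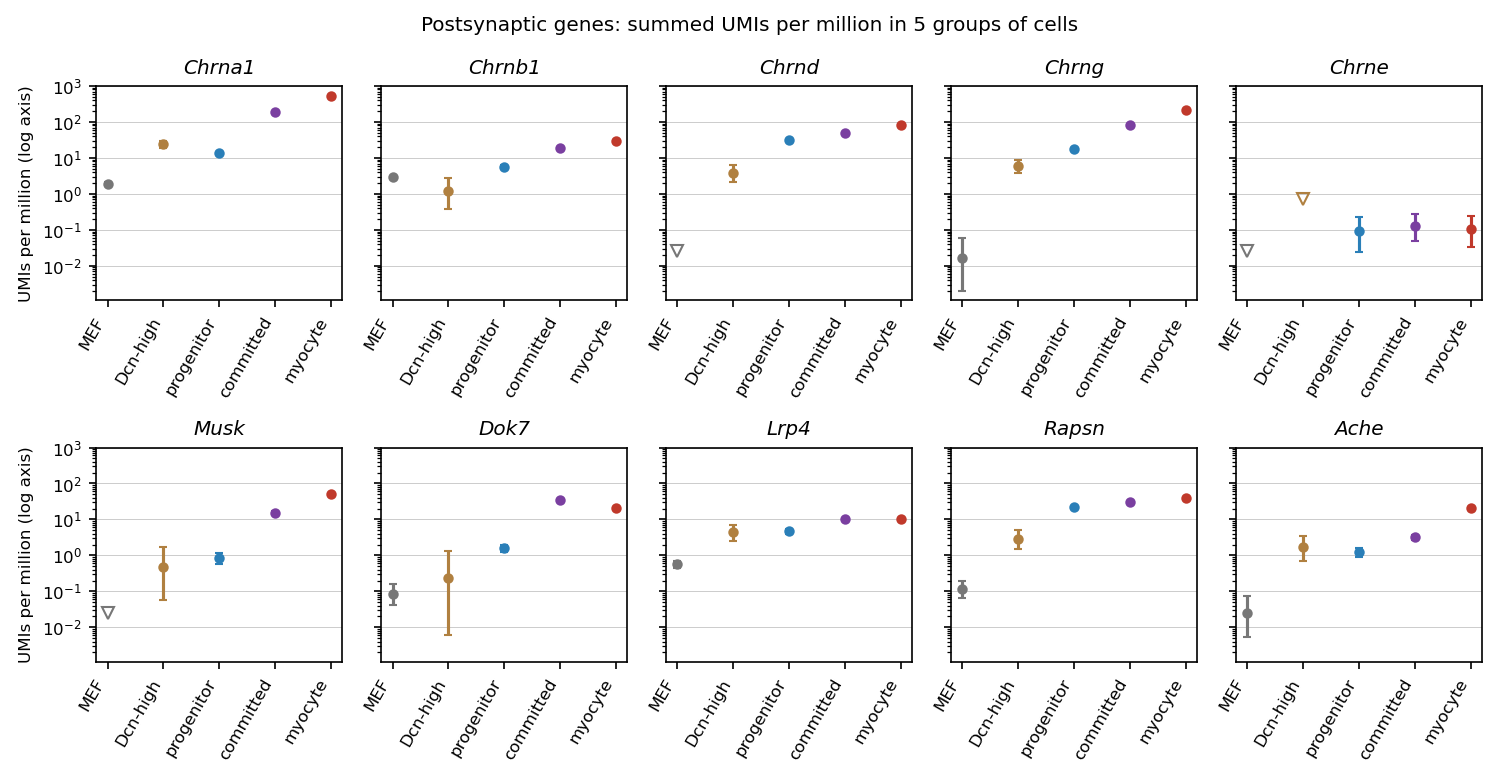
CPM (log axis) of each of the 10 genes in MEF cells, Dcn-high cells, progenitor cells, committed cells and myocytes, as points with exact 95% Poisson intervals that are often smaller than the point. Open triangles mark groups with 0 UMIs, drawn at the level that 3 counts would give. Chrna1, Chrng and Musk climb steeply to the myocytes, and Chrnd and Rapsn are already high in progenitor cells. Chrne is near 0.1 CPM in progenitor cells, committed cells and myocytes and has 0 UMIs in MEF and Dcn-high cells.

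Chrna1 encodes the ligand-binding alpha subunit and had the highest level of the 10 genes in committed cells and in myocytes. It stood at 1.92 CPM in MEF cells, 13.5 in progenitor cells, 191 in committed cells and 529.6 in myocytes (523 to 536). The myocyte level was 39.4-fold that of progenitor cells (36.3 to 42.8). A Chrna1 UMI was found in 84.8% of myocytes at 5000 UMIs (82.4% to 86.9%) and in 98.4% without thinning. Unthinned myocytes held a median of 22 Chrna1 UMIs each, with quartiles of 11 and 33 and a highest cell of 126. Committed cells were uneven by comparison, with a median of 1 UMI, an upper quartile of 4 and a highest cell of 92. Nearly all myocytes therefore held this transcript, while in committed cells a minority held most of it.

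Chrng, the fetal gamma subunit, was second. It stood at 0.0169 CPM in MEF cells, 17.5 in progenitor cells, 82.9 in committed cells and 215 in myocytes (211 to 219). A Chrng UMI was found in 62.0% of thinned myocytes (59.0% to 65.0%) and 24.4% of thinned committed cells, or 95.9% and 57.6% without thinning. The median myocyte held 9 Chrng UMIs. Its level in myocytes was 12.3-fold that of progenitor cells (11.4 to 13.2).

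Chrne, the adult epsilon subunit, was close to undetected in every group. It had 4 UMIs in progenitor cells, 6 in committed cells and 5 in myocytes, and no myocyte held more than 1. Levels were 0.0909 CPM (0.0248 to 0.233), 0.130 (0.0477 to 0.283) and 0.103 (0.0334 to 0.240). These intervals overlap, so no order of the 3 groups is given. Over all 9349 iMPC cells Chrne had 24 UMIs in 23 cells, against 19044 Chrng UMIs.

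In the 3 myogenic groups gamma transcripts far outnumbered epsilon transcripts. In myocytes there were 2093 Chrng UMIs per Chrne UMI (897 to 6449). In committed cells the ratio was 638 (293 to 1740.0), and in progenitor cells it was 192.5 (74.9 to 708). The intervals of myocytes and committed cells overlap, and those of committed and progenitor cells overlap too. Those of myocytes and progenitor cells do not overlap, on 5 and 4 Chrne UMIs. All 5 myocytes with a Chrne UMI also held Chrng, and 990 held Chrng without Chrne. Of the 5 Chrne UMIs in myocytes, 4 lay in the 103 cells with over 10% mitochondrial UMIs, which held 1157 of the 10467 Chrng UMIs. Without those cells the myocyte ratio was 9310.0 on 1 Chrne UMI. With the limit for myocytes raised to 20 Ckm UMIs it was 852, since all 5 Chrne UMIs lay in those cells. No library here holds Chrne at a high level, so how well this assay captures it was not tested. In the GENCODE annotation Chrne (ENSMUSG00000014609, GRCm38 chromosome 11, 70614883 to 70619216, minus strand) overlaps 4930544D05Rik on the opposite strand and no gene on its own strand.

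**Figure D2:**
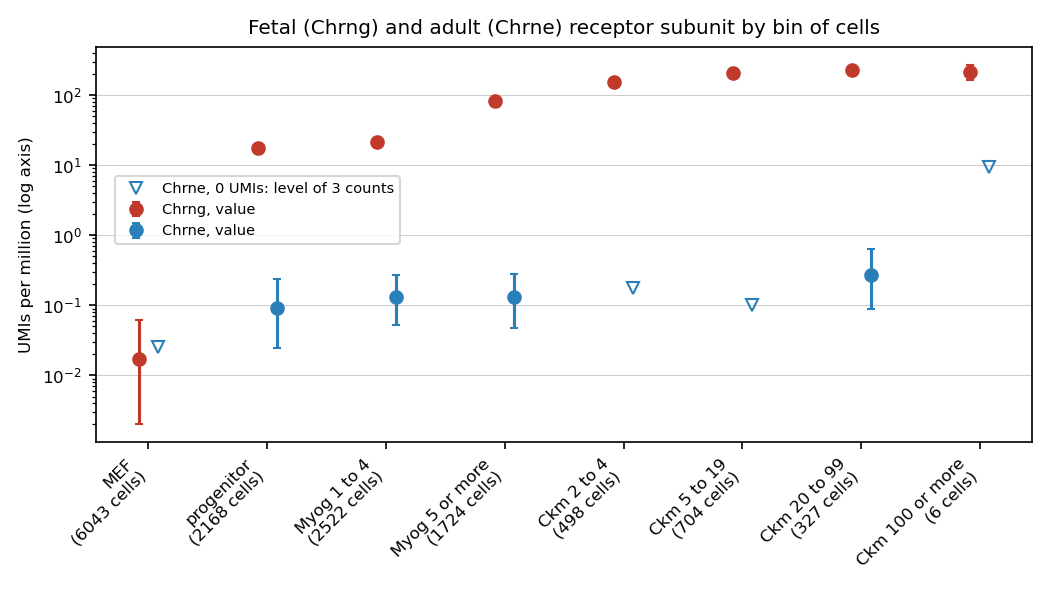
CPM (log axis) of Chrng and Chrne in MEF cells and 7 bins of iMPC cells, ordered by Pax7, Myog and Ckm UMIs, with exact 95% Poisson intervals. Open triangles mark bins with 0 Chrne UMIs, drawn at the level of 3 counts. Chrng goes from 17.3 CPM in progenitor cells to 229.9 CPM at 20 to 99 Ckm UMIs, while Chrne never passes 0.274 CPM. The last bin holds 6 cells and is not read.

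The ratio of Chrng to Chrne was also taken by Ckm level within the myocytes. The myocytes were divided into quartiles of Ckm CPM, from 132 CPM of Ckm in the lowest to 917 in the highest (the median UMIs per cell were 51799.0 and 42093.5). Chrng stood at 199.7, 204, 229 and 233 CPM from the lowest quartile to the highest. Chrne had 0, 0, 1 and 4 UMIs. In the highest quartile the ratio was 664 (259 to 2437), an interval that overlaps that of progenitor cells (74.9 to 708). In the lowest, Chrng was 1009-fold higher than Chrne with Chrne set to a floor of 3 counts over the quartile. The exact lower limit there was 820-fold. With 5 UMIs in all, 4 of them in cells with over 10% mitochondrial UMIs, no order of the quartiles is given for Chrne.

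Some promoter motifs are known from work on these genes. Muscle regulators of the MyoD family bind E-boxes, written CANNTG, and Ets factors of the GABP type bind the N-box, CCGGAA, which is known for synaptic expression of the epsilon gene. RefSeq promoter entries (GRCm38.p6) were found for 7 of the 10 genes: Chrna1, Chrnb1, Chrng, Chrne, Musk, Dok7 and Ache. The stretches from 160 to 31 bases before the start site are shown for the alpha, gamma and epsilon genes, because gamma and epsilon are the subunits exchanged between the fetal and adult forms and alpha, common to both, is the highest member. Letters run 5′ to 3′ on the gene's strand, and capitals mark E-boxes and N-boxes on either strand.
Chrna1: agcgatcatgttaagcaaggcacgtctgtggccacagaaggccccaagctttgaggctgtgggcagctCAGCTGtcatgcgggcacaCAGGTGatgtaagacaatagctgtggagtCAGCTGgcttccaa
Chrng: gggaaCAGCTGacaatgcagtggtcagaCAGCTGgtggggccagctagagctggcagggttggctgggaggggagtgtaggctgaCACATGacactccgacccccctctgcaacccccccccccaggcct
Chrne: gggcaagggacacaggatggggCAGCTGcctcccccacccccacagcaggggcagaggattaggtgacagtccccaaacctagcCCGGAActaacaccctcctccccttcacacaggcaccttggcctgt
They lie at chr2:73580369-73580498 (minus strand), chr1:87205651-87205780 (plus strand) and chr11:70619225-70619354 (minus strand). In the 250 bases before the start, Chrna1 and Chrng have 3 E-boxes each, of which 2 read CAGCTG. Chrne has 1 E-box, of that form too, and 1 N-box. Of 32851 RefSeq promoter windows of that length, 66.2% hold an E-box, 12.2% hold 3 or more, 13% hold that form and 12% hold an N-box. The form is an E-box itself, so those shares overlap. Among the 7 genes only Chrne has an N-box in this window, and Musk and Chrnb1 have 3 E-boxes too. The Chrng stretch lies before the start site of the RefSeq entry but inside the GENCODE span of the gene, 87204657 to 87212694. A match describes these letters, and binding was not measured.

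Chrnb1 and Chrnd encode the beta and delta subunits that are common to the fetal and adult receptor. Chrnb1 was the member with the least contrast to fibroblasts, at 2.92 CPM in MEF cells, 5.72 in progenitor cells, 19.1 in committed cells and 30.1 in myocytes. Chrnd (GRCm38 chromosome 1, 87190607 to 87200070) lies 4586 bases before Chrng on the same strand. It had 0 UMIs in MEF cells and stood at 30.7 CPM in progenitor cells (29.0 to 32.3), 48.2 in committed cells and 80.8 in myocytes. These neighbours differed in their course, since Chrng was below Chrnd in progenitor cells and above it in myocytes. The number of Chrng UMIs per Chrnd UMI was 0.571 in progenitor cells (0.522 to 0.624), 1.72 in committed cells (1.63 to 1.81) and 2.66 in myocytes (2.57 to 2.76). Chrna1 UMIs per Chrnd UMI went from 0.439 (0.398 to 0.484) to 3.97 and 6.55 (6.34 to 6.78).

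Progenitor cells held transcripts of the delta subunit, of rapsyn and of the gamma subunit above the level of the Dcn-high cells. A Chrnd UMI was found in 13.2% of thinned progenitor cells (11.8% to 14.7%), 2.21% of thinned Dcn-high cells (0.722% to 5.09%) and 0 of the MEF cells. For Rapsn the shares were 9.82% (8.60% to 11.1%), 0.885% (0.107% to 3.16%) and 0.0174%. Without thinning they were 41.3% and 6.64% for Chrnd in progenitor and Dcn-high cells, and 32.2% and 4.87% for Rapsn. For Chrng they were 8.49% (7.35% to 9.74%) and 2.21% (0.722% to 5.09%) after thinning. Free RNA in the droplets was estimated from barcodes of 200 to 600 UMIs, at their median of 430 UMIs per cell. It would give 3.57% of the Chrnd, 2.86% of the Rapsn and 12.4% of the Chrng UMIs counted in progenitor cells.

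Chrna1 did not stand out in the same way. It was found in 5.96% of thinned progenitor cells (5.01% to 7.04%) and in 11.1% of thinned Dcn-high cells (7.29% to 15.9%), so its share in progenitor cells was below that of the comparison cells. The free RNA estimate came to 30.1% of its UMIs there. In Dcn-high cells 99 Chrna1 UMIs were counted where that estimate gives 18.5, so their level is more than this estimate of free RNA gives. The source of the Chrna1 UMIs in progenitor cells was not tested. Lrp4, at 1.93% against 3.54%, Ache, at 0.780% against 0.885%, and Musk, at 0.183% against 0.442%, were likewise not above the Dcn-high cells in thinned shares, which rest on 4 progenitor cells and 1 Dcn-high cell for Musk. By CPM, Musk stood at 0.841 in progenitor cells and 0.482 in Dcn-high cells and Lrp4 at 4.63 and 4.34, with overlapping intervals. Chrnb1 was at 2.52% (1.91% to 3.27%) in progenitor cells and 0.442% (0.0112% to 2.44%) in Dcn-high cells. These intervals overlap, on 1 Dcn-high cell. By CPM, Chrnb1 stood at 5.72 (5.04 to 6.48) in progenitor cells and 1.20 (0.391 to 2.81) in Dcn-high cells. Its unthinned shares were 10.3% (9.03% to 11.6%) and 2.21% (0.722% to 5.09%). Neither of these pairs of intervals overlaps. Dok7 was at 0.963% in progenitor cells and in 0 of the 226 Dcn-high cells, which allows a share of cells with a UMI of up to 1.33% (3 counts). Without thinning, 1 of those cells held a Dok7 UMI.

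**Figure D3:**
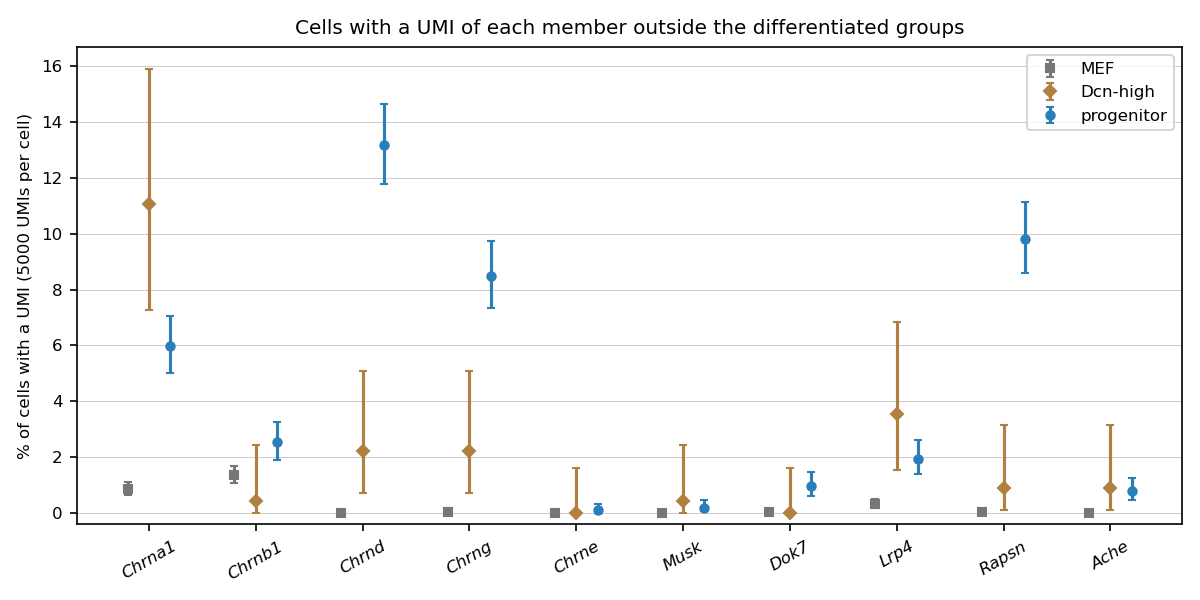
Percent of cells with a UMI of each member at 5000 UMIs per cell, in MEF cells, Dcn-high cells and progenitor cells, with exact 95% binomial intervals. Chrnd, Rapsn and Chrng stand above the Dcn-high cells in progenitor cells, and Chrna1 stands below them.

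Chrnd was at a similar level in progenitor cells without detected UMIs of later genes. In the 982 progenitor cells without a UMI of Ckm, the fusion gene Mymk or embryonic myosin Myh3, Chrnd stood at 30.2 CPM (27.7 to 32.8) and Rapsn at 20.7 CPM (18.7 to 22.9). Split by Myod1, Chrnd stood at 26.9 CPM (24.6 to 29.3) in the 1017 cells without a Myod1 UMI and at 33.6 CPM (31.3 to 35.9) in the 1163 with one. Rapsn differed more, at 15.7 CPM (14 to 17.6) and 26.04 CPM (24.1 to 28.1). These subsets were chosen after the values had been seen, and Myod1 counts do not separate the introduced MyoD from the cells' own.

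Against MEF cells, 8 of the 9 members with enough UMIs were at least 2-fold higher in progenitor cells and 0 were lower, where 42.1% of all genes tested were called in either direction and 19.6% were higher. Genes counted as tested when both groups together had at least 20 UMIs, which left out Chrne. Chrnd was 1206-fold higher with MEF set to a floor of 3 counts over the group, and the exact lower limit was 979.5-fold. Chrng was 1033-fold higher (285 to 8542) on its 2 MEF UMIs. Rapsn was 182-fold higher (108 to 333), Lrp4 8.29-fold (6.25 to 11.1) and Chrna1 6.99-fold (5.99 to 8.19). Chrnb1 was 1.96-fold higher (1.66 to 2.31) and was the member not called. Its log2 ratio of 0.97 lay at the threshold and passed it under the median gene ratio as scaling. Of the called genes, Chrna1, Lrp4, Ache, Musk and Dok7 had CPM intervals in progenitor cells that overlapped or lay below those of the Dcn-high cells of the same library. For Chrna1 these were 13.5 CPM (12.4 to 14.6) and 23.8 CPM (19.4 to 29.0). The fibroblast culture and the progenitor cells differ in library as well as in cell state, and these cannot be told apart.

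Between progenitor and committed cells the largest ratios were those of Dok7, Musk and the receptor alpha subunit. Of the 9 members tested, 7 were at least 2-fold higher in committed cells and 0 lower, with 26.0% of all genes tested called and 8.75% higher. The median log2 ratio over the 9 was 1.74, against -0.22 over all genes tested. Dok7 was 21.4-fold higher (16.8 to 27.6), going from 1.59 to 34.0 CPM. Musk followed at 18.5-fold (13.3 to 26.5), from 0.841 to 15.6 CPM, and Chrna1 at 14.2-fold (13.1 to 15.5). The free RNA estimate came to 23% of the Dok7 and 21.1% of the Musk UMIs in progenitor cells. With free RNA subtracted, the log2 ratios of Dok7, Musk and Chrna1 were 4.78, 4.53 and 4.32, in place of 4.42, 4.21 and 3.83. Chrng was 4.74-fold higher, Chrnb1 3.33-fold, Ache 2.66-fold and Lrp4 2.17-fold. Chrnd and Rapsn, which had the highest levels of the 10 genes in progenitor cells, were 1.57-fold (1.47 to 1.68) and 1.38-fold (1.27 to 1.496) higher and were not called.

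From committed cells to myocytes the log2 ratios of the members ran from -0.67 to 2.67. Here 4 of 9 were at least 2-fold higher and 0 lower, with 27.0% of all genes tested called and 8.25% higher. The median mitochondrial share of UMIs was 3.47% in progenitor cells, 3.90% in committed cells and 5.98% in myocytes, and its part in these differences was not tested. Ache, which ends transmission by cleaving acetylcholine, had the largest ratio at 6.35-fold (5.34 to 7.60), from 3.204 to 20.4 CPM. Musk was 3.17-fold higher (2.92 to 3.45), Chrna1 2.77-fold (2.70 to 2.84) and Chrng 2.60-fold (2.501 to 2.69). Chrnd, Chrnb1 and Rapsn lay between 1.36-fold and 1.68-fold. Lrp4, the agrin receptor, stood at 10.1 and 10.3 CPM, a ratio of 1.03 (0.904 to 1.17) that gives no direction.

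Dok7 was the member with a peak before the myocytes. It stood at 34.0 CPM in committed cells (32.3 to 35.7) and 21.4 CPM in myocytes (20.1 to 22.8), a log2 ratio of -0.67 (-0.78 to -0.55) that is within 2-fold. In the finer bins it went from 34.0 CPM at 5 or more Myog UMIs to 28.6, 22.4 and 19.8 CPM at 2 to 4, 5 to 19 and 20 to 99 Ckm UMIs. Musk ran the other way through the same bins, at 15.6, 30.6, 47.5 and 52.6 CPM. The number of Dok7 UMIs per Musk UMI was 2.19 in committed cells (1.999 to 2.39) and 0.434 in myocytes (0.403 to 0.467), a ratio that does not depend on scaling.

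**Figure D4:**
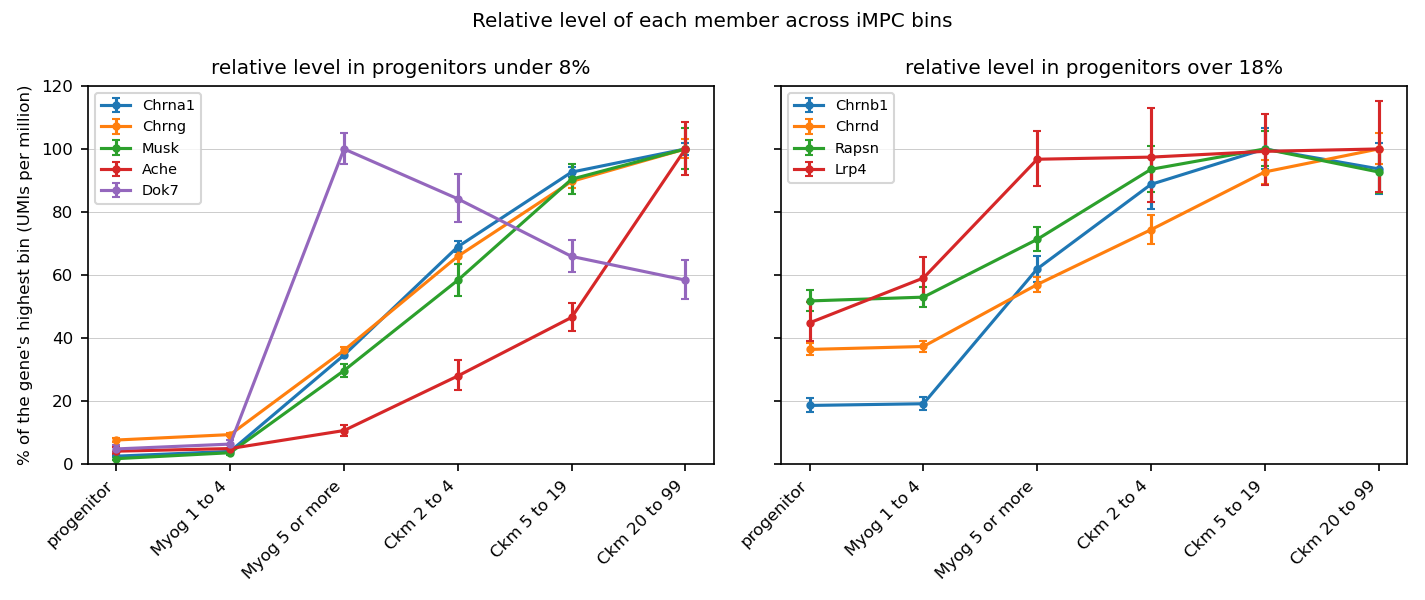
CPM of 9 members in 6 bins of iMPC cells as a percent of each gene's highest bin, with exact 95% Poisson intervals of the bin. The 5 genes on the left are under 8% in progenitor cells and Dok7 alone peaks at 5 or more Myog UMIs. The 4 genes on the right stand at 18.5% (Chrnb1), 36.3% (Chrnd), 44.8% (Lrp4) and 51.7% (Rapsn) in progenitor cells. Chrne, with too few UMIs, and the bin of 6 cells are left out.

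Of the 9 members other than Chrne, Ache also differed most between the outer quartiles of myocytes. It stood at 14.3 CPM (12.5 to 16.4) in the quartile of lowest Ckm and at 37.9 CPM (34.4 to 41.6) in the highest. Over the same quartiles Chrna1 went from 514 to 546 CPM, Musk from 45.7 to 55.5 CPM and Rapsn from 40.3 to 38.8 CPM. An Ache UMI was found in 39.4% of unthinned myocytes, the highest cell holding 14. Colq, the collagen tail that anchors the enzyme in the synaptic basal lamina, stood at 0.568, 4.94 and 22.0 CPM in progenitor cells, committed cells and myocytes. Prima1, the membrane anchor of the neural form of the enzyme, stood at 0.364, 0.433 and 0.0822 CPM.

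Between myocytes and progenitor cells, 8 of 9 members were at least 2-fold higher and 0 lower, with 49.5% of all genes tested called and 13.5% higher. This comparison shares both its groups with those above. The median log2 ratio was 3.62 over the members and -0.56 over all genes tested. Rapsn was the member not called, at 1.87-fold (1.73 to 2.02). Genes with at least 100 UMIs on both sides had a median log2 ratio of -0.43 here, -0.17 between committed and progenitor cells and -0.24 between myocytes and committed cells, so ratios to the typical gene are higher by those amounts. By that scaling Rapsn reached a log2 ratio of 1.34, and Dok7 between myocytes and committed cells -0.43.

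The genes closest in profile to Chrna1 and Chrng were sought. Likeness was measured over 8 bins (MEF cells and 7 iMPC bins) among 14011 genes with at least 100 UMIs, as 0.5 times the summed absolute differences between the genes' CPM shares, which is 0 for the same profile. For Chrna1 the nearest were Txlnb at 0.0101, the slow troponin C gene Tnnc1 at 0.0107 and the calcium-activated potassium channel gene Kcnn3 at 0.0139. For Chrng the nearest were Coro6 at 0.0273 and Hrc, a calcium-binding protein of the sarcoplasmic reticulum, at 0.0295. Chrng itself was 0.0484 from Chrna1, and among the members Chrna1 was farthest from Rapsn, at 0.276. With the bin of 6 cells merged into its neighbour, 1 of the 3 nearest genes was kept for Chrna1 and 0 of 3 for Chrng, so these names are loose. Chrne had 22 UMIs over the bins and was not matched.

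Other genes of the agrin and MuSK pathway were mostly within 2-fold. Of 18 listed signalling genes, 1 was at least 2-fold higher in myocytes than in progenitor cells and 4 were lower. The median log2 ratio of the 18 was -0.33, against -0.56 over all genes tested, of which 13.5% were higher and 36.0% lower. Agrn itself, which muscle makes in a form that clusters receptors weakly, stood at 28.1 CPM in progenitor cells, 10.9 in committed cells and 4.62 in myocytes, a log2 ratio of -2.60 (-2.81 to -2.39). The kinase gene Abl1 gave -1.89 (-2.08 to -1.71). Macf1, a linker between microtubules and the cortex, was higher with a log2 ratio of 2.01 (1.96 to 2.06). The other 2 lower genes, Pak1 at -1.77 and Ctnnb1 at -1.32, are named after their values were seen.

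Of 19 genes of the postsynaptic scaffold, its sodium channel and the synaptic basal lamina, 6 were higher and 9 lower in myocytes than in progenitor cells, with a median log2 ratio of 0.39. Over all genes tested, 13.5% were higher and 36.0% lower, with a median of -0.56. Scn4a, the sodium channel of adult muscle, had the largest ratio, with a log2 ratio of 5.59 (4.45 to 7.05) from 0.136 to 6.58 CPM. Colq followed at 5.28 (4.71 to 5.91). The lowest were Dtnb, a dystrobrevin, at -3.02 (-3.53 to -2.55) and the laminin gene Lama4 at -2.97 (-3.24 to -2.71).

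Of 11 genes of neuregulin signalling and synaptic nuclei, 10 were tested between myocytes and progenitor cells, and 3 were higher and 3 lower, with a median log2 ratio of 0.24, against the same 13.5% and 36.0% of all genes tested. The receptor genes Erbb3 and Erbb2 were higher, with log2 ratios of 3.82 (3.54 to 4.11) and 1.71, and so was Ufsp1 at 2.79 (2.49 to 3.10). The ligand gene Nrg1 gave -3.04 (-3.79 to -2.36). The Ets gene Etv4 gave -3.52 (-3.90 to -3.16) and the GABP subunit gene Gabpb1 -1.20. Its partner Gabpa was within 2-fold, at -0.84. Erbb2, Gabpb1 and Gabpa are named after their values were seen. Gabpa stood at 22.2 CPM in progenitor cells and 12.4 CPM in myocytes.

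Of 15 genes known to respond to activity or denervation, 14 were tested, and 8 were higher in myocytes than in progenitor cells and 1 lower (13.5% and 36.0% of all genes tested), with a median log2 ratio of 1.52 against -0.56 over all. Embryonic myosin Myh3 gave 6.17 (6.09 to 6.25), and the lower gene was Eya1 at -2.41 (-2.64 to -2.18). Several of these genes are also general genes of muscle differentiation. Of 19 other acetylcholine receptor, chaperone and cholinesterase genes, 5 had enough UMIs. Of these, 2 were higher and 0 lower (13.5% and 36.0% of all genes tested). The called ones were Chrna9 at 0.514 CPM and Chrm3 at 0.576 CPM in myocytes. Their log2 ratios were 2.91 (1.20 to 5.29) and 3.08 (1.38 to 5.44) on 3 progenitor UMIs each. Bche, the second cholinesterase gene, stood at 0.391 CPM in myocytes, against 20.4 CPM for Ache.

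Markers of a nerve were examined beside these values. Chat, Slc18a3 and Mnx1, markers of cholinergic motor neurons, had 0 UMIs in all 5 groups, while other markers of the same list were present. The summed level of all 13 neuron markers was nevertheless 333 CPM in progenitor cells, 149 in committed cells, 78.1 in myocytes, 142 in Dcn-high cells and 57.5 in MEF cells. It was led by Stmn2 at 172 CPM and Tubb3 at 69.9 CPM in progenitor cells. The choline transporter gene Slc5a7 stood there at 21.3 CPM, the motor neuron factor Isl1 at 20.3, and the neurofilament genes Nefl and Prph at 18.4 and 11.4. The part of these cells or transcripts in the members' values was not tested beyond the subset that follows. The 973 progenitor cells without Stmn2, Snap25 or Isl1 UMIs held Chrnd at 30.3 CPM (27.8 to 33.1) and Rapsn at 26.8 CPM (24.4 to 29.3), a subset also chosen after values had been seen. The 6 Schwann cell markers summed to between 2.26 and 4.28 CPM in MEF cells and the 3 myogenic groups and to 21.9 CPM in Dcn-high cells, where S100b gave 19.99 CPM.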

How the data were processed

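The authors deposited UMI counts for each gene in each barcode, not normalized, which came from Cell Ranger per the file headers. The submitters' processing notes name Cell Ranger 4.0, Seurat 3.2.3 and the build GRCm38.p6. The annotation is not given in the sources used here. The iMPC matrix lists 6794880 barcodes with 282903287 UMIs and no cell call, and the MEF matrix 6113 barcodes with 118541302 UMIs. The 26100 shared genes were used. The 24 genes listed for MEF alone hold 0.209% of its UMIs.

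The members, groups and lists were chosen with earlier results of these data known. UMIs were summed per group and divided by the group total (CPM). Intervals are exact Poisson for levels, exact conditional for ratios and Clopper-Pearson for shares, at 95%. A group at 0 was set to a floor of 3 counts. A gene was called at a 2-fold ratio with at least 20 UMIs over both groups. The calling code was checked on simulated counts. Thinning drew 5000 UMIs per cell without replacement and left out 284 MEF cells. There are no replicates, and no test between groups was made. Doublets were kept. Scrublet, run through scanpy as an alternative, marked 377 iMPC cells (4.03%). Named genes were all members, the 2 extreme called genes at each end of a list, and the 3 nearest profiles of Chrna1 and Chrng. A gene that this rule names is not reported here. Python 3.11.15, numpy 2.4.6, scipy 1.17.1, pandas 2.3.3 and scanpy 1.11.5 were used. Positions are from GENCODE M21 and RefSeq on GRCm38.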

Additional observations from a re-analysis of the deposited data

Results flagged for a closer look

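Transcripts of the members were found in 48846 iMPC barcodes of 200 to 600 UMIs, which entered no comparison and where a count of 3 would give 0.141 CPM. The receptor genes stood there at 190.3 CPM for Chrna1, 102 for Chrng, 51.4 for Chrnd, 11.9 for Chrnb1 and 0.329 for Chrne. Rapsn stood at 28.9 CPM, Dok7 at 17.2, Musk at 8.33, Ache at 7.72 and Lrp4 at 5.08. The order of the first 4 receptor genes is that of both the committed cells and the myocytes, and Chrne is the lowest in each. Dok7 was above Musk here, as in committed cells (34.0 and 15.6 CPM), while myocytes had the reverse (21.4 and 49.4 CPM). At the median of 430 UMIs these levels would give under 1% of the UMIs of each member in myocytes other than Chrne, where they would give 2.94%.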

How the results depend on the processing

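No called member ratio changed sign in the alternatives run. The Lrp4 log2 ratio between myocytes and committed cells, 0.04 and not called, was -0.10 with stricter groups and -0.05 without mitochondrial and ribosomal protein genes in the total. Of 270 alternative values of called member ratios 0 fell under 2-fold, and of 90 values of the others 4 reached it (Chrnb1 against MEF in 3 settings and Rapsn in 1). Member counts differed from those reported by over 1.5 times in 2 settings: with at least 100 UMIs, 5 members were called between progenitor cells and MEF, because fewer were tested, and at 1.5-fold 7 were called between myocytes and committed cells, 1 of them lower (Dok7). Smaller differences were 9 in place of 8 against MEF in 5 settings, 9 in place of 8 between myocytes and progenitor cells in 2, and 8 in place of 7 between committed and progenitor cells in 1. The Chrng to Chrne ratio of myocytes was 9310.0 at a mitochondrial limit of 10% and 852.4 with stricter group limits, on 1 and 5 Chrne UMIs. Shares followed depth by construction, and each thinned alternative was a new random draw. With the same 1037 myocytes, a new draw gave 60.7% for Chrng in place of 62.0%. Stricter groups, at the same depth of 5000 UMIs, gave 89.5% for Chrna1 and 66.4% for Chrng. For Chrna1 the share was 59.1% at a depth of 2000, 98.4% at full depth and 63.6% when 2 UMIs were required. For Chrng it was 33.9%, 95.9% and 29.4%. For Chrne the share was 0 at the 5000 UMI minimum, at the 10% limit and when 2 UMIs were required, where the reported share is 1 of 1037 cells. Leaving out cells of more than 1 group changed no count, as there were 0 such cells. No paired analysis was possible because each group has 1 library.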
